A study of Mus musculus with 6 samples.

Results

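Septin2, Septin4, Septin6, Septin7, Septin12 and the anion transporter gene Slc26a8 are described here in mouse testis. They were picked by a list of symbols and not by a threshold on a measured value, and were 6 of the 34144 gene rows measured. Older symbols of the Sept2 type were accepted. The 61 transcripts that GENCODE M21 assigns to these genes, of 126126 measured, were examined with them. RNA came from testes of C57Bl/6J mice aged 3 months, 3 of them wild type and 3 Nsun7-/-, with no other allele or agent stated in the labels. The labels name neither the lesion in the Nsun7 allele nor how it was made. Each library was labelled with its own mouse. The testis was measured whole after removal of its capsule, so fewer cells of a type and less RNA per cell cannot be told apart in any value below.

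Septins are GTP-binding proteins that join end to end into rods, and the rods join into filaments and rings. Mammalian septins fall into groups named after Septin2, Septin3, Septin6 and Septin7, and a rod takes subunits from several groups. In the sperm tail they build the annulus, a ring between the midpiece, which holds the mitochondria, and the principal piece, which holds the fibrous sheath. Septin4 and Septin12 are known for their place in this ring, and Slc26a8 encodes a transporter found at it. The longitudinal columns of the fibrous sheath, which the study's title links to Nsun7, run through the tail just behind the annulus. The genotype comparison therefore asked whether the transcripts of the ring and of its subunits differed between Nsun7-/- and wild-type testes.

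For 3 of the 6 genes the main transcripts end in different coding sequence, and the stretches that set them apart are shown here because the transcript values below turn on them. All are from GENCODE M21, written 5′ to 3′ on the gene's own strand, and the first 30 bases of each are shared by the transcripts of the same gene. Septin12 lies on chromosome 16, and its transcripts encode 357, 278 and 317 codons in the order shown. Capitals mark an exon of 52 bases in the 1295-base transcript, the in-frame stop codon reached without that exon in the 1227-base transcript, and the first bases kept after the shared exon in the 2576-base transcript.
Septin12 transcript of 1295 bases: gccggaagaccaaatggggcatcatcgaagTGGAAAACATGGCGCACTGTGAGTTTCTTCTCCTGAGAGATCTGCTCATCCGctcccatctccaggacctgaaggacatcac
Septin12 transcript of 1227 bases: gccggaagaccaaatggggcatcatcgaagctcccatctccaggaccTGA
Septin12 transcript of 2576 bases: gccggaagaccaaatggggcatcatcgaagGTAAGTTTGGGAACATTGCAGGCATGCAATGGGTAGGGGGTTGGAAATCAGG

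Slc26a8 lies on chromosome 17, and its longer and shorter main transcripts encode 999 and 430 codons. Capitals mark the 16 bases that the 1717-base transcript lacks, and then the in-frame stop codon that this transcript reaches.
Slc26a8 transcript of 3670 bases: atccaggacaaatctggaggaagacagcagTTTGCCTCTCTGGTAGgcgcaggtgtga
Slc26a8 transcript of 1717 bases: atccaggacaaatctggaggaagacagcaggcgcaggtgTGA

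Septin6 lies on the X chromosome, and its main transcripts encode 434 and 427 codons. Capitals mark the last coding bases after the shared exon, with the stop codon.
Septin6 transcript of 1845 bases: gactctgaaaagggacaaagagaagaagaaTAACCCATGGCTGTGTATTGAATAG
Septin6 transcript of 4673 bases: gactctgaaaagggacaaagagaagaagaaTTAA

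The libraries held between 23480448 and 28558865 estimated counts. Nsun7, the targeted gene, was at 36.5 ± 0.762 CPM (counts scaled by TMM to a common library size; SD, n = 3) in wild type and 20.3 ± 4.19 CPM (SD, n = 3) in Nsun7-/-, which was -0.84 on the log2 scale (adjusted p 0.016, edgeR quasi-likelihood test, Benjamini-Hochberg). Wild-type mouse 1 and Nsun7-/- mouse 3 lay at the ends of the first principal component of all genes, which held 35.5% of the variance. Its values were -38.3, -21.3 and -6.39 in wild-type mice 1 to 3. They were 0.981, 15.9 and 49.2 in Nsun7-/- mice 1 to 3, so the genotypes did not overlap on it. Wild-type mouse 1 also had the shortest mean fragment, 154 bases against 168 to 179 in the others, and the largest share of Rmrp, the RNA of RNase MRP, at 4.85% of counts against 0.985% to 2.48%. Of the marker lists, Leydig cells had 2 of 9 genes called higher in Nsun7-/- (median log2 fold change 0.60), against 0.233% of all tested genes. Their summed levels were 3010, 2450 and 1869 CPM in wild-type mice 1 to 3. In Nsun7-/- mice 1 to 3 they were 5075, 3063 and 2294 CPM, so the sums overlapped and mouse 1 was the highest. The elongating spermatid list had 0 of 10 genes called (median -0.21, summed levels of 8205 to 10766 CPM against 7421 to 10213 CPM). Round spermatid markers had 7 of 10 positive log2 fold changes (median 0.09, 0 called), with sums of 644 to 757 CPM against 669 to 732 CPM. Spermatogonia markers had 4 of 10 positive ones (median -0.10, 0 called). Sertoli cell and pachytene spermatocyte markers had their lowest sums in Nsun7-/- mouse 3, at 3838 CPM against 4547 to 5580 CPM and at 5029 CPM against 6045 to 7630 CPM in the other libraries. Peritubular myoid markers had 9 of 9 negative log2 fold changes (median -0.25, 0 called), with sums of 630 to 750 CPM in Nsun7-/- against 778 to 823 CPM in wild type. Macrophage and leukocyte markers had 9 of 9 positive ones (median 0.24, 0 called), with overlapping sums of 218 to 365 CPM against 197 to 260 CPM. What these shifts contribute to the values below was not tested.

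No member passed the test of the genotypes. Of the 6 genes 0 had an adjusted p under 0.05, against 0.567% of the 21002 genes tested (0.233% called higher and 0.333% called lower in Nsun7-/-), and 0 had an unadjusted p under 0.05, against 8.39% of all genes. DESeq2 also called 0 of the 6. Septin2, Septin4, Septin6 and Slc26a8 had positive log2 fold changes (knockout minus wild type) and Septin7 and Septin12 negative ones, from -0.08 to 0.28 with a median of 0.15. Over all tested genes the median was 0.01 and 52.5% were positive. For 2 of the 6, Septin2 and Septin6, every Nsun7-/- library was above every wild-type library in CPM, while 7.38% of all genes were apart in that direction and 14.3% in either. With 3 mice a genotype, the exact two-sided permutation test of a single gene cannot go below 0.1.

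**Figure D1:**
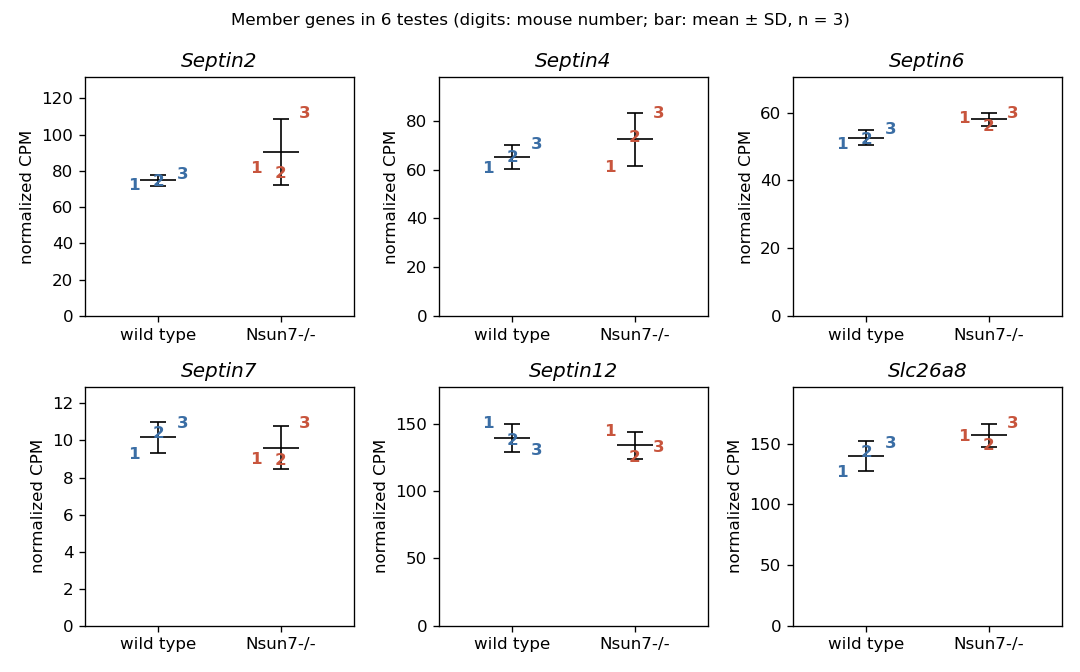
Normalized CPM of Septin2, Septin4, Septin6, Septin7, Septin12 and Slc26a8 (vertical axes, from 0) in wild-type (blue) and Nsun7-/- (red) testes; each digit is a mouse, and the bars are the mean ± SD of 3 mice. The genotypes are apart for Septin2 and Septin6, and Nsun7-/- mouse 3 is the highest library for each gene other than Septin12.

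Septin2, a ubiquitous septin on chromosome 1 that gives its name to a group of subunits, was at 71.7, 74.3 and 78.1 CPM in wild-type mice 1 to 3. In Nsun7-/- mice 1, 2 and 3 it was at 81.5, 78.3 and 112 CPM. The genotypes did not overlap, but wild-type mouse 3 and Nsun7-/- mouse 2 differed by less than the counting error of about 2.2% in each, and mouse 3 of the Nsun7-/- group stood well above the rest. Its level there was 149% of the wild-type mean, against 105% and 109% in the other Nsun7-/- mice. The log2 fold change was 0.28 (SE 0.14, 95% interval -0.02 to 0.58) with an adjusted p of 0.625 by edgeR's quasi-likelihood test, and the exact permutation p was 0.1. Without Nsun7-/- mouse 3 the log2 fold change was 0.09.

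Septin4, on chromosome 11, belongs to the same group, and its protein is needed for the annulus to form. It was at 60.4, 65.1 and 70.3 CPM in wild-type mice 1 to 3, and at 61.0, 73.2 and 83.0 CPM in Nsun7-/- mice 1, 2 and 3. The genotypes overlapped, with Nsun7-/- mouse 1 close to the lowest wild-type mouse. The log2 fold change was 0.15 (SE 0.13, 95% interval -0.13 to 0.43), with an adjusted p of 0.738 by edgeR and an exact permutation p of 0.4. It came to 0.03 at the lowest when single libraries were left out, and to -0.01 without both wild-type mouse 1 and Nsun7-/- mouse 3.

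Septin6, which names the group that sits between the other subunits of a rod, was at 50.5, 52.2 and 54.9 CPM in wild-type mice 1, 2 and 3. It was at 58.3, 56.0 and 59.7 CPM in the Nsun7-/- mice. The genotypes did not overlap, and the SD within each was small, 2.2 CPM in wild type and 1.85 CPM in Nsun7-/-. The gap between the nearest mice of the genotypes was nevertheless smaller than the counting error of either library, 2.65% in wild-type mouse 3 and 2.59% in Nsun7-/- mouse 2. The log2 fold change was 0.14 (SE 0.11, 95% interval -0.09 to 0.38), with an adjusted p of 0.707 by edgeR and an exact permutation p of 0.1. It stayed between 0.11 and 0.17 when each library was left out in turn.

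Septin7, on chromosome 9 and the only member of its group, is a core subunit of septin rods. It was the member with the fewest counts, 204 to 338 in a library. In wild-type mice 1, 2 and 3 it was at 9.24, 10.4 and 10.9 CPM, and in Nsun7-/- mice 1, 2 and 3 at 8.97, 8.93 and 10.9 CPM. The genotypes overlapped, and Nsun7-/- mice 1 and 2 were the lowest libraries, each below wild-type mouse 1 by less than its counting error of 7.0%. The log2 fold change was -0.08 (SE 0.15, 95% interval -0.40 to 0.24), with an adjusted p of 0.879 by edgeR and an exact permutation p of 0.6.

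Septin12 belongs to the group of Septin3 and is known as a septin of male germ cells. It was at 150, 138 and 130.0 CPM in wild-type mice 1 to 3, and at 145, 125 and 133 CPM in Nsun7-/- mice 1, 2 and 3. The genotypes overlapped, and the highest library was wild-type mouse 1, which was the lowest for Septin2, Septin4, Septin6 and Slc26a8. The log2 fold change was -0.06 (SE 0.12, 95% interval -0.31 to 0.19), with an adjusted p of 0.894 by edgeR and an exact permutation p of 0.6. Of the 6 intervals, that of Septin12 was centred closest to 0.

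Slc26a8, whose protein moves anions across the membrane at the annulus, was at 126, 143 and 150 CPM in wild-type mice 1 to 3. In Nsun7-/- mice 1, 2 and 3 it was at 156, 148 and 167 CPM. The genotypes overlapped through a single pair, wild-type mouse 3 and Nsun7-/- mouse 2. The log2 fold change was 0.17 (SE 0.12, 95% interval -0.08 to 0.42), with an adjusted p of 0.681 by edgeR and an exact permutation p of 0.2. Without wild-type mouse 1 and Nsun7-/- mouse 3 together it was 0.05.

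Levels of different genes were compared in TPM, the deposited unit that allows for transcript length. Septin12 was the most abundant septin, at 118 ± 14.7 TPM in wild type and 142 ± 15.2 TPM in Nsun7-/- (SD, n = 3 each), above each of the other 12 septins and Slc26a8 in 6 of 6 libraries. Its wild-type libraries, at 101, 124 and 129 TPM, did not overlap those of any other gene in this set. Septin12 made up 26.0% ± 2.45 of the summed TPM of 13 septins in wild type and 24.0% ± 1.85 in Nsun7-/- (SD, n = 3).

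Septin2 came next among the members, at 70.7 ± 19.4 TPM in wild type and 111 ± 33.8 TPM in Nsun7-/- (SD, n = 3). Slc26a8 followed at 58.1 ± 14.6 and 74.8 ± 10.8 TPM. Septin2 was above Slc26a8 within each of the 6 libraries, although the ranges of their wild-type TPM overlapped. Septin6 was at 38.4 ± 6.58 TPM in wild type and 51.1 ± 3.68 TPM in Nsun7-/- (SD, n = 3), below Slc26a8 in 6 of 6 libraries. Septin4 was at 34.5 ± 9.03 and 49.3 ± 16.3 TPM. Septin6 and Septin4 could not be ordered, since Septin6 was the higher in 4 of 6 libraries and their ranges overlapped. Septin7 was the lowest member at 7.52 ± 1.96 TPM in wild type and 9.31 ± 3.27 TPM in Nsun7-/- (SD, n = 3), below Septin4 in 6 of 6 libraries with no overlap in wild type.

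**Figure D2:**
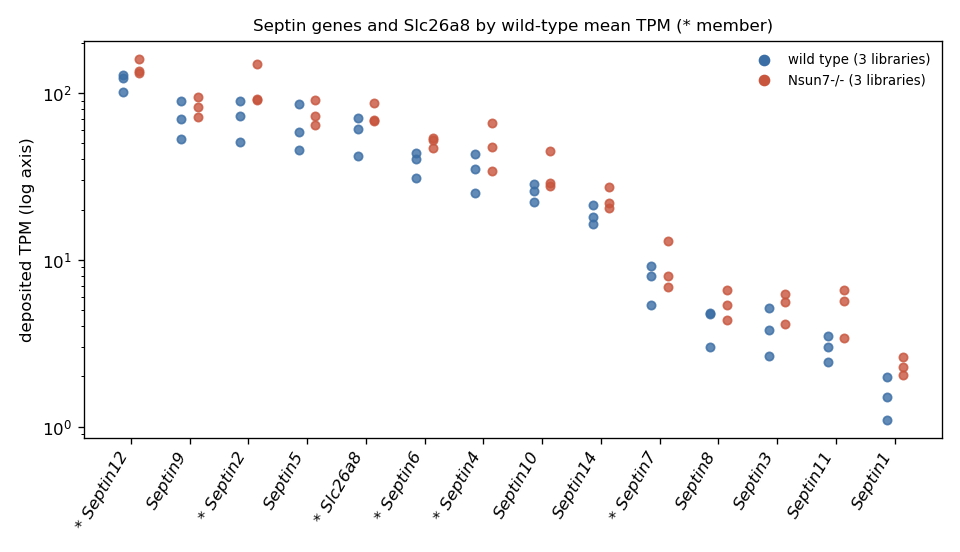
Deposited TPM (vertical log axis) of 13 septin genes and Slc26a8, ordered by their wild-type mean; each point is a library (blue wild type, red Nsun7-/-, 3 each), and asterisks mark the members. Septin12 lies highest in each library and Septin7 is the lowest of the members. Over all tested genes the median difference in log2(TPM + 1), Nsun7-/- minus wild type, was 0.24.

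The other septins filled the gaps in this order. Septin9, of the same group as Septin12, was at 70.9 ± 18.7 TPM in wild type and could not be ordered with Septin2 (higher in 2 of 6 libraries), and Septin5 was at 63.3 ± 20.5 TPM (SD, n = 3 each). Septin10 and Septin14, of the Septin6 group, were at 25.6 ± 3.12 and 18.6 ± 2.52 TPM. Septin8, Septin3, Septin11 and Septin1 were all below Septin7, with Septin1 the lowest at 1.53 ± 0.44 TPM. Every septin measured was detected, and the group of Septin7 had far fewer transcripts per length than each of the other groups.

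TPM set the genotypes apart for a member, Septin12, that overlapped in CPM. In TPM the Nsun7-/- libraries were all above the wild-type ones for Septin2, Septin6 and Septin12, as they were for 19% of all tested genes, while 1.1% were apart in the lower direction. Septin12 overlapped between the genotypes and had a negative difference in CPM. On the log2(TPM + 1) scale the median difference over all tested genes, Nsun7-/- minus wild type, was itself 0.24. Rmrp took 15.7% to 33.3% of TPM in wild type against 11.4% to 17.5% in Nsun7-/-. Septin12 and Septin7 had differences of 0.27 and 0.26 in log2(TPM + 1), close to the median of all tested genes. Those of Slc26a8, Septin6, Septin4 and Septin2 were 0.38, 0.42, 0.48 and 0.64.

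A ratio of members within a library, in TPM or CPM, does not depend on how much of the library other RNAs take. The log2 ratio of Septin2 to Septin7 in TPM was 3.24, 2.98 and 3.47 in wild-type mice 1 to 3, and 3.71, 3.53 and 3.52 in Nsun7-/- mice 1, 2 and 3. All Nsun7-/- ratios were above all wild-type ratios, by 0.36 on average, with an exact two-sided permutation p of 0.1 that became 0.5 after Benjamini-Hochberg adjustment over the 5 ratios. The ratio of Septin4 differed by 0.21 (exact permutation p 0.4), that of Septin6 by 0.14 (0.8), that of Slc26a8 by 0.10 (0.7) and that of Septin12 by -0.02 (1). The genotypes overlapped in these last 4 ratios, and the spread of each within a genotype was 0.14 to 0.49. Septin7 had the fewest counts of the members, and its counting error entered all 5 ratios.

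Taken from CPM, with no allowance for length, these ratios separated the genotypes for more members. The log2 ratio of Slc26a8 to Septin7 was 3.77, 3.79 and 3.78 in the wild-type mice and 4.12, 4.06 and 3.93 in the Nsun7-/- mice, a difference of 0.26 where TPM gave 0.10. The ratio of Septin4 was 2.71, 2.65 and 2.69 against 2.77, 3.04 and 2.92, a difference of 0.22, and that of Septin2 differed by 0.34. All Nsun7-/- libraries lay above all wild-type libraries in these 3 ratios, each with an exact permutation p of 0.1, adjusted to 0.167 over the 5. The ratios of Septin6 (a difference of 0.23) and Septin12 (a difference of 0.03) overlapped between the genotypes on this scale too. The 5 ratios share Septin7 as denominator, and its CPM was lowest in Nsun7-/- mice 1 and 2 (8.97 and 8.93), which raises each ratio there. How many of all genes had ratios to Septin7 apart in this way, in CPM or TPM, was not counted.

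**Figure D3:**
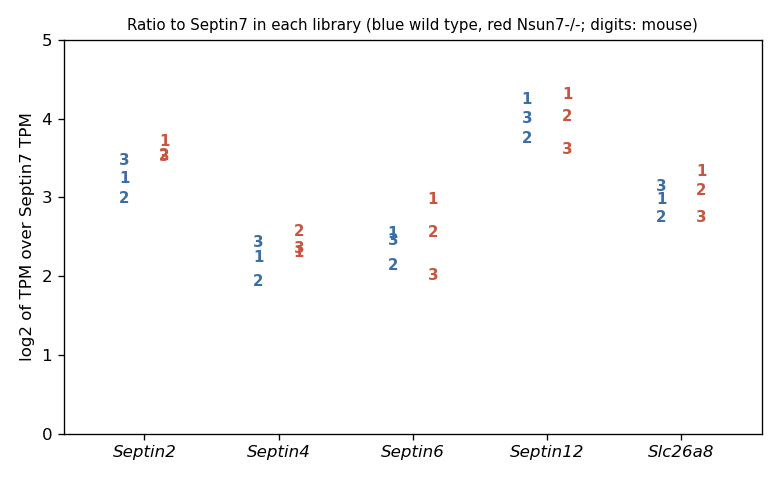
Log2 ratio of the TPM of Septin2, Septin4, Septin6, Septin12 and Slc26a8 to the TPM of Septin7 in the same library (vertical axis); digits are mice, blue wild type and red Nsun7-/-. On this TPM scale Septin2 is the single gene whose red digits all lie above the blue ones, at 3.52 to 3.71 against 2.98 to 3.47.

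Across the 6 libraries the members did not all move together. In log2 CPM, Septin6 and Slc26a8 had the highest Pearson correlation (0.94), and Septin2 had 0.80 with Septin4, 0.80 with Septin6 and 0.81 with Slc26a8. Septin12 was negative with each other member, from -0.30 with Septin2 to -0.76 with Septin4. With the members other than Septin12, Septin7 had values from 0.13 with Septin6 to 0.55 with Septin4. These are descriptions of 6 libraries that share the genotype difference and the spread along the first principal component. The genotypes did not overlap on that component, so the genotype difference and this spread cannot be told apart here. Nsun7-/- mouse 3 was the highest library for 5 of the 6 members.

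Among 9904 or 9905 other genes of at least 10 CPM, those whose log2 CPM followed a member most closely over the 6 libraries were as follows. Septin2 was closest to Actr3, a subunit of the actin-nucleating Arp2/3 complex (r = 0.997), then Smim8 and Uhrf1bp1l. Septin4 was closest to Taf1 (r = 0.998), a subunit of the general transcription factor TFIID, then Abl2 and Bnc2. Septin6 was closest to Wdr61 (r = 0.986), then Bicc1 and Strap.

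For Septin7 they were Ing4 (r = 0.983), Catspere2 and Galntl6, with Catspere2 encoding a part of the sperm calcium channel complex. For Septin12 they were Lratd1 (r = 0.992), Ttc30a1 and Purb, and for Slc26a8 Dhx33 (r = 0.995), Tor1b and Tubd1. None of these 18 genes passed the genotype test in edgeR. With 6 points, the names and correlations are a description only.

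The 8 other septins were likewise without a call. Of 8 tested, 0 passed in either direction, 5 were positive, 0 had an unadjusted p under 0.05, and the median log2 fold change was 0.02 beside 0.01 over all genes. The smallest p belonged to Septin11 (9.91 ± 0.118 CPM in wild type, 11.3 ± 1.93 CPM in Nsun7-/-; SD, n = 3), which differed by 0.19 on the log2 scale (adjusted p 0.718, edgeR). Septin9, at 232 ± 21.5 and 212 ± 18.5 CPM, followed with -0.13 (adjusted p 0.749).

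The list of annulus neighbours and septin partners held 15 genes. Cby3 and Cibar1 place the annulus, Tbc1d21 and Dnajb13 encode proteins seen at it, and Racgap1 and Cftr bind Slc26a8. Cdc42 and its effectors Cdc42ep1 to Cdc42ep5 steer septin filaments, and Anln encodes the septin-binding anillin. All 15 were tested and 0 passed in either direction. Of them 11 had a negative and 4 a positive log2 fold change, with a median of -0.08.

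Unadjusted p-values under 0.05 were found for 2 of these 15 genes, beside 8.39% of all genes. Cdc42ep1 was at 8.46 ± 0.482 CPM in wild type and 6.03 ± 0.775 CPM in Nsun7-/- (SD, n = 3), a difference of -0.49 on the log2 scale (adjusted p 0.36, edgeR). Cdc42, the small GTPase itself, was at 40.2 ± 1.88 and 48.3 ± 5.12 CPM, with 0.26 and an adjusted p of 0.589. The effector was lower and the GTPase higher in all Nsun7-/- libraries than in all wild-type ones. In CPM the genotypes were apart for 4 of the 15, beside 14.3% of all genes.

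Of 10 other genes of the SLC26 family, 7 had enough counts for the test and Slc26a3, Slc26a4 and Slc26a5 did not. The 7 had a median of 0.04 and 0 calls, and 1 of them had an unadjusted p under 0.05 in edgeR, beside 8.39% of all genes. That was Slc26a1, a sulfate transporter, with 1.37 ± 0.417 CPM in wild type and 2.48 ± 1.0 CPM in Nsun7-/- (SD, n = 3). It differed by 0.86 on the log2 scale (adjusted p 0.492, edgeR). The genotypes overlapped for Slc26a1, which had only 26 to 107 counts in a library. Slc26a2, another sulfate transporter, was at 59.1 ± 2.83 and 67.7 ± 3.26 CPM, with 0.20 and an adjusted p of 0.645. In TPM, Slc26a8 was the most abundant of the 11 family members, above the 22.7 ± 4.93 TPM of Slc26a2 in wild type.

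**Figure D4:**
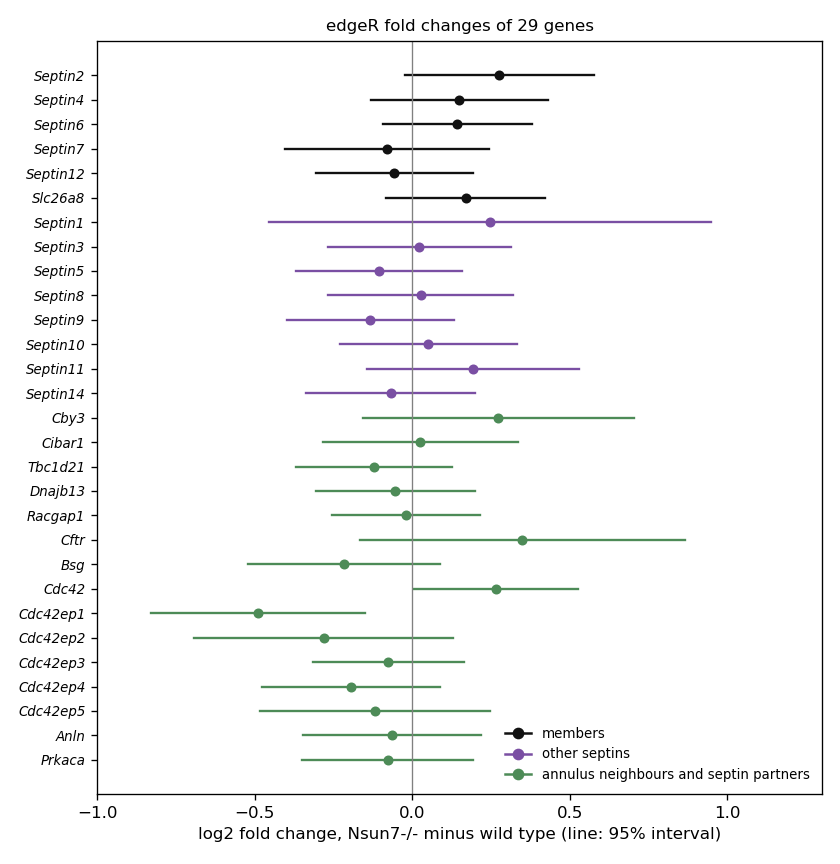
Log2 fold change, Nsun7-/- minus wild type (horizontal axis, edgeR), of the 6 members, 8 other septins and 15 annulus neighbours and septin partners; points are estimates from 3 against 3 libraries and lines their 95% intervals. The intervals of all members and other septins include 0, and those of Cdc42ep1 and Cdc42 do not.

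Transcripts were examined for a change within a gene that its total would hide. Septin4 was left out here, since the transcripts that could be joined to it held 13.8% to 20.7% of its counts. Of 43 transcripts of the other 5 genes 32 had enough counts, and 0 of the 32 passed the adjusted threshold in edgeR, against 0.0272% of 58773 transcripts tested. An unadjusted p under 0.05 was found for 3 of the 32, against 4.76% of all. In the test of a transcript's share of its gene (diffSpliceDGE in edgeR) 0 of the 32 passed, against 0.261% of 49430 transcripts, and 1 of the 32 had an unadjusted p under 0.05, against 2.57% of all. The values below are kallisto's estimated counts, which divide reads between transcripts that share sequence. They do not allow for transcript length, so a share of counts is not a share of RNA molecules, and an order by count need not hold per length.

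By estimated count, Septin12 had the same order of transcripts in each library. Its 1295-base transcript, with the capitalised exon shown above, held 59.3%, 64.0% and 55.4% of the gene's counts in wild-type mice 1 to 3. In Nsun7-/- mice 1, 2 and 3 it held 62.3%, 67.1% and 51.4%, so the genotypes overlapped and the widest values were both in Nsun7-/-. The 2576-base transcript, which reads on past the shared exon, held 22.2% ± 3.65 in wild type and 21.2% ± 2.73 in Nsun7-/- (SD, n = 3). The 1227-base transcript, which skips the exon and stops soon after, held 13.8% ± 2.95 and 13.9% ± 4.48. Log2 fold changes of the 3 were -0.05, -0.13 and -0.04, with adjusted p-values of 0.942 to 0.99 in edgeR. The transcript with the longest coding sequence thus held 51.4% to 67.1% of the estimated counts of Septin12.

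Slc26a8 was dominated by its 3670-base transcript, which encodes the long protein. It held 78.8%, 82.5% and 84.0% of the gene's counts in wild-type mice 1 to 3, and 80.9%, 85.5% and 86.8% in Nsun7-/- mice 1, 2 and 3. The genotypes overlapped. The 1717-base transcript, which lacks the 16 bases, held 13.4% ± 3.13 in wild type and 10.9% ± 3.61 in Nsun7-/- (SD, n = 3). Their log2 fold changes were 0.20 and -0.13, with adjusted p-values of 0.932 and 0.952 in edgeR.

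By estimated count, Septin6 was split between its main transcripts. The 1845-base form held 54.0%, 49.0% and 44.3% in wild-type mice 1 to 3 and 48.3%, 40.3% and 45.2% in Nsun7-/- mice 1, 2 and 3. The 4673-base form, whose coding sequence ends sooner, held 30.3%, 29.8% and 37.6% and then 30.5%, 39.0% and 39.1%. Each form overlapped between the genotypes, and the log2 fold changes were 0.00 and 0.28, with adjusted p-values of 0.999 and 0.932 in edgeR. Shorter and intermediate forms of 530 and 3457 bases held 10.7% ± 1.06 and 6.47% ± 2.67 in wild type (SD, n = 3).

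Septin7 had much of its count on noncoding transcripts. Protein-coding transcripts held 53.8%, 35.0% and 58.7% of its counts in wild-type mice 1 to 3, and 52.6%, 63.2% and 50.2% in Nsun7-/- mice 1, 2 and 3. Transcripts annotated as retaining an intron held 24.3% ± 1.75 in wild type and 21.8% ± 1.03 in Nsun7-/- (SD, n = 3), and a noncoding transcript of 1727 bases held 19.2% ± 10.6 and 16.7% ± 4.49. The low wild-type value came from mouse 2, where that noncoding transcript was highest. For Septin2, Septin6, Septin12 and Slc26a8, coding transcripts held 84.6% or more in each library. In GENCODE M21 the Septin7 locus contains the antisense pseudogene Gm48272, and the end of Septin6 overlaps the antisense gene Gm15008. The sources used here do not say whether counting kept strand, so reads of these pairs cannot be told apart.

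**Figure D5:**
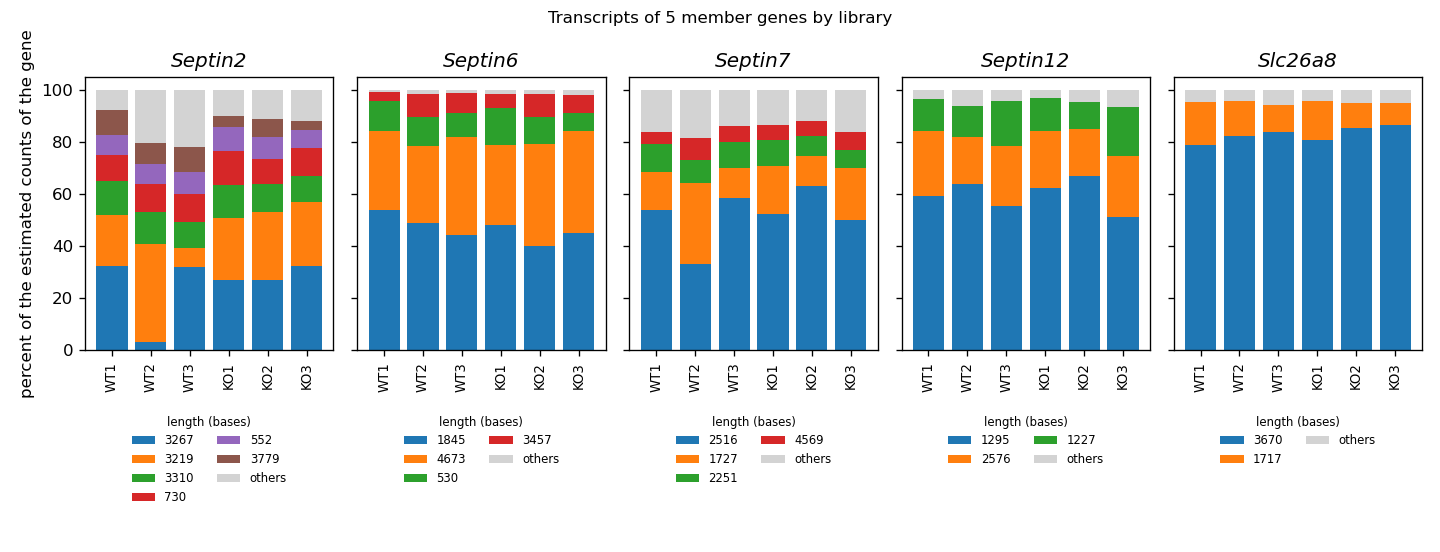
Percent of each gene's estimated counts (vertical axis) held by its transcripts of at least 5%, named by length in bases, with the remaining transcripts in grey, for Septin2, Septin6, Septin7, Septin12 and Slc26a8 in 6 libraries (bars). Septin12 and Slc26a8 keep their order of transcripts by count, without allowance for length, in every library. The blue and orange parts of Septin2 vary most within wild type.

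Septin2 had the least certain split. Its transcripts of 3267 and 3219 bases, which encode the same 361 codons, share their last 3144 bases, and the estimate moved between them: the 3267-base form held 32.4%, 3.43% and 32.1% in wild-type mice 1 to 3, and 27.2%, 26.9% and 32.6% in Nsun7-/- mice. Another form of 3192 bases shares 3117 bases with both and encodes 321 codons. Together the 3 forms held 51.1% ± 1.09 of the gene in wild type and 54.1% ± 2.73 in Nsun7-/- (SD, n = 3), so their sum varied far less than the parts.

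The 3192-base form was singled out after its values were seen. Its estimated counts were 0.935, 185 and 219 in the wild-type mice, taken in order, and 14.8, 0.0098 and 0.369 in the Nsun7-/- mice. Wild-type mouse 1 was among the low libraries, so the genotypes overlapped. Its share coefficient was -4.99 on the log2 scale with an adjusted p of 0.073 in diffSpliceDGE, and the call depended on the libraries and settings. Leaving out wild-type mouse 1, 2 or 3 gave an adjusted p of 0.018, 0.178 or 0.34 in diffSpliceDGE. It was 0.045, 0.47 and 0.597 without Nsun7-/- mouse 1, 2 or 3. With a minimum count of 1 it was 0.038, with RLE scaling 0.071, and with mouse number as a replicate block it was 1. Since both other long forms share nearly all of its sequence, the estimate rests on few distinguishing bases.

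The 3779-base form of Septin2, with the same 361 codons, held 9.53%, 8.38% and 9.50% in wild-type mice 1, 2 and 3. It held 4.09%, 7.19% and 3.44% in Nsun7-/- mice 1, 2 and 3, so every Nsun7-/- library was below every wild-type library while the gene as a whole was above. How many of all transcripts had shares apart in this way was not counted. In CPM 14.3% of all genes were apart in either direction. For the 3779-base form the following tests apply. Its log2 fold change was -0.69 (SE 0.24), with an unadjusted p of 0.027 that did not hold over all transcripts (adjusted p 0.932, edgeR). Its share coefficient of -0.95 had an adjusted p of 1 in diffSpliceDGE.

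The remaining counts of the Septin4 row could not be joined to it through GENCODE M21, and the transcripts that hold them were not identified. Its 5′ end also overlaps Gm11492 on the same strand in that annotation, so the level given for Septin4 may include reads that cannot be assigned between them.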

How the data were processed

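RNA of decapsulated testes was depleted of ribosomal and globin RNA and made into libraries with the NEBNext Ultra II RNA kit, per the labels' protocols. Per the submitters' processing notes the authors used kallisto 0.50.1 and mm39. Neither an annotation release nor a strand setting is stated in the sources used here. The deposited tables hold expected counts (kallisto's estimates, per the file headers) per transcript, whole-number counts per gene, which the authors deposited as rounded sums of these estimates, and TPM for both, scaled by the authors to a fixed total. There were 0 columns of other samples.

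Gene counts and rounded transcript estimates entered edgeR 4.0.16 under R 4.3.3 (TMM, filterByExpr with minimum count 10 and total 15, robust quasi-likelihood test of genotype, Benjamini-Hochberg threshold 0.05). The filter kept 21002 of 30388 genes that had any count and 58773 of 105808 such transcripts. Transcript shares were tested with diffSpliceDGE. Each SE is the fold change (log2) over the root of the F value. Transcripts were joined to genes through GENCODE M21 (GRCm38), which matched 93.6% of transcripts and 98.9% of counts. Its sequences were printed, but no coordinates, because the builds differ. Counting errors are 1 divided by the square root of the count and cover counting alone. The tests were also run on simulated counts, drawn independently without the first principal component or reads shared between transcripts. That run does not show how the tests behave under these features. Alternatives used DESeq2 1.42.0 and limma 3.58.1 on log2 TPM.

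Named genes are the members, the 2 genes of smallest p in each list, the 3 genes most correlated with each member (r of log2 CPM, prior count 2, mean CPM of 10 or more, no predicted names), transcripts with 5% of their gene, and Nsun7. The members were set by symbol, but they and the lists were chosen with earlier results of these data known. Depth was 23480448 to 28558865 counts, and the biological coefficient of variation was 14.9%. Each library is labelled as a separate mouse. The labels do not state that equal mouse numbers mark pairs, so number was left out of the main fit and used in an alternative. Deviations from the genotype means correlated at 0.18, -0.0048 and 0.20 between mice of the same number. Between mice of different numbers they correlated at -0.24 to 0.056. These values do not settle whether the mice were paired.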

Additional observations from a re-analysis of the deposited data

How the results depend on the processing

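In all alternatives run, 0 members and 0 genes of the context lists were called. The number of all genes called moved from 119 to 203 with DESeq2, 180 without the filter, 61 and 68 on log2(TPM + 1) and log2(TPM + 0.1), 63 on centred log2(TPM + 1), and 67 to 166 when single libraries were left out (67 without wild-type mouse 1, 78 without wild-type mouse 2 or 3). With mouse number as a replicate block it was 331, with 0 members called and a Septin2 log2 fold change of 0.26 (adjusted p 0.308, edgeR). Log2 fold changes reversed for Septin7 (0.26 and 0.28) and Septin12 (0.27 and 0.27) on log2(TPM + 1) and log2(TPM + 0.1). On these scales the median difference over all tested genes was 0.24 and 0.30. They also reversed for Septin4 (-0.012) and Septin12 (0.0098) without both wild-type mouse 1 and Nsun7-/- mouse 3. Leaving out single libraries reversed none of the 6 gene values: Septin2 ran from 0.09 to 0.37, Septin4 0.03 to 0.25, Septin6 0.11 to 0.17, Septin7 -0.19 to -0.03, Septin12 -0.12 to -0.01 and Slc26a8 0.09 to 0.22. From CPM the differences in log2 ratio to Septin7, Nsun7-/- minus wild type, were 0.34 (Septin2), 0.22 (Septin4) and 0.23 (Septin6, from 0.14). They were 0.26 for Slc26a8 (from 0.10) and 0.028 for Septin12 (reversed). The ratios of Septin4 and Slc26a8 no longer overlapped between the genotypes. In TPM, with single libraries left out, the genotype difference in log2 ratio of Septin12 to Septin7 ran from -0.18 to 0.17. That of Septin6 to Septin7 ran from -0.094 to 0.39, and that of Slc26a8 to Septin7 from -0.038 to 0.26. The 1845-base transcript of Septin6, near 0, became -0.011 with a minimum count of 1, -0.0072 with RLE scaling and -0.0035 with the replicate block. With single libraries left out, transcript values ran across 0 for Septin6 (1845 bases -0.082 to 0.092, 530 bases -0.19 to 0.35, 3457 bases -0.078 to 0.48), Septin7 (2516 bases -0.11 to 0.32, 1727 bases -0.53 to 0.31, 4569 bases -0.37 to 0.13), Septin12 (1295 bases -0.15 to 0.071, 2576 bases -0.26 to 0.037, 1227 bases -0.29 to 0.18) and Slc26a8 (1717 bases -0.45 to 0.016). Member transcript shares called went from 0 to 1, the 3192-base transcript of Septin2, with a minimum count of 1, and ranged from 0 to 1 with single libraries left out. Where no cause is given, the cause was not tested. Septin7, at 204 to 338 counts, is the member whose depth limits precision most.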
